A study of Mus musculus with 8 samples.

Results

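Many mouse genes of unknown function still carry the name of the RIKEN full-length cDNA clone by which they were found, and the first digits of such a name stand for the library the clone came from. The prefix shared by all names below, from 4933400A11Rik to 4933440M02Rik, marks clones from adult testis. The genes described here are all those of the expression table whose name has this prefix and ends in Rik, which is 110 of 23983 genes. The rule uses the name and no value measured here. Since the named clones came from adult testis, expression there is partly built into membership. Their RNA was measured in whole testis of adult wild-type C57BL/6J mice and of young ones on days 12, 16 and 24 after birth (d12, d16, d24), by strand-specific, paired-end sequencing of total RNA from a piece of testis. All 4 groups share strain and genotype, none was treated, and the sources used here give neither the adult age nor the number of animals in a library. Each stage has 1 library, so the spread between animals is unknown and no difference between stages was tested.

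In the first wave of spermatogenesis the germ cells of the young testis advance almost in step, and new cell types appear with age. Spermatogonia enter meiosis in the second week after birth, pachytene spermatocytes then accumulate, round spermatids appear about the end of the third week, and elongating spermatids and sperm fill the adult testis. The testis transcribes more of the genome than most tissues, including many long noncoding RNAs (lncRNAs) that are found nowhere else. In whole testis, fewer cells of a type and less RNA per cell cannot be told apart.

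Of the 110 genes, 97 have their symbol in RefSeq's GRCm38 annotation and 13 matched a synonym. RefSeq lists 72 as lncRNAs (65.5%, against 7.54% of all genes of the table), 33 as protein-coding (30% against 85.2%) and 5 as transcribed pseudogenes (4.55% against 1.42%). The 13 with a newer symbol include 4933402P03Rik (Spem2), 4933406J08Rik (Terb2, part of the complex that ties meiotic telomeres to the nuclear envelope), 4933426M11Rik (Susd6), 4933416C03Rik (Taf7l2), 4933415F23Rik (Ppp1r14bl), 4933406M09Rik (Mgat4f), 4933433C11Rik (Stpg3) and 4933413G19Rik (Tex52). The median transcript length was 1409 bases, with a median of 4 exons, against 2263 bases and 6 exons over all genes. Of the members, 102 lie on the 19 autosomes, 7 on the X chromosome (6.36% against 4.38% of all placed genes), none on the Y chromosome, and 4933409K07Rik on an unplaced scaffold. Since reads were mapped to the chromosomes alone, the place at which those of 4933409K07Rik were counted is not known.

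The sequences just before the start sites are shown for 6 members that stand for the main time courses described in the following paragraphs. Each is the 250 bases before a RefSeq start site (GRCm38.p6), 5′ to 3′ on the strand of the gene. Capitals mark matches, on either strand, to the 5 short words searched, which are TGACGTCA (the site of CREB-family factors), CAACTG (the core of the site of MYB factors, one of which acts in pachytene spermatocytes), GTTGCC (part of the site of RFX factors), AACAAT (the core of SOX sites) and TATAAA (the TATA box). On the other strand CAACTG reads CAGTTG, and AACAAT reads ATTGTT. The other strand of GTTGCC ends in the letters with which CAACTG starts, so matches to both can overlap. The stretches are chr14:7412223-7412472 (plus strand) for 4933406F09Rik, chr8:87563657-87563906 (plus) for 4933402J07Rik, chr11:54213289-54213538 (minus) for 4933405E24Rik, chr7:125349787-125350036 (minus) for 4933440M02Rik, chr19:42051978-42052227 (plus) for 4933411K16Rik and chr3:90052552-90052801 (plus) for the second start site of 4933434E20Rik.
4933406F09Rik: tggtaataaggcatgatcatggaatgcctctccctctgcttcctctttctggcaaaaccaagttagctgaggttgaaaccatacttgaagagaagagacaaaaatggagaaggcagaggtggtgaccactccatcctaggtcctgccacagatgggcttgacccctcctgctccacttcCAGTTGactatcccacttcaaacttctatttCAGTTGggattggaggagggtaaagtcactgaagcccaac
4933402J07Rik: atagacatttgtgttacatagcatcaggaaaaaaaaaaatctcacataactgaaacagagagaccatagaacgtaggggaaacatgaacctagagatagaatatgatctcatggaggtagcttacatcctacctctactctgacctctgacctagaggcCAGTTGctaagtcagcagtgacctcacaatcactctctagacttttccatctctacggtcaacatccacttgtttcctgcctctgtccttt
4933405E24Rik: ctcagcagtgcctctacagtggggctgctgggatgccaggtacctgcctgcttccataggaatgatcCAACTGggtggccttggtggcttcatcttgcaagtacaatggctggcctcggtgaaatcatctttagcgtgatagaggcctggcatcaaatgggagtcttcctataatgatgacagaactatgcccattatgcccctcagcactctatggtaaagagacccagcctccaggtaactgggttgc
4933440M02Rik: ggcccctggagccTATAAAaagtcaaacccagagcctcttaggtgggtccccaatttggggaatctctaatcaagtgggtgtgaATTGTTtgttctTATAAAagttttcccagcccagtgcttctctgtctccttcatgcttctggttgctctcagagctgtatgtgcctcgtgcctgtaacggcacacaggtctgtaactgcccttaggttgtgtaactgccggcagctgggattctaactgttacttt
4933411K16Rik: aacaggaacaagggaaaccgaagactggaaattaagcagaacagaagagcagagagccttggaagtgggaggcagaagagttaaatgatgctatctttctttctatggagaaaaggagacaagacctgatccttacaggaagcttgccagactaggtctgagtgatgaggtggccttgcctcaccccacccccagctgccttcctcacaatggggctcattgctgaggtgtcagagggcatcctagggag
4933434E20Rik: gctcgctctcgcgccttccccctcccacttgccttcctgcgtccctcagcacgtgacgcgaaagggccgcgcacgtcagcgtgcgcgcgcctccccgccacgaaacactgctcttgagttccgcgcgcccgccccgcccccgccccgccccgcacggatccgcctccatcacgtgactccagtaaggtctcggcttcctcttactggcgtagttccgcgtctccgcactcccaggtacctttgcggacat

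4933406F09Rik, an lncRNA that was the highest member at d24, has the word CAGTTG at 2 positions, and 4933402J07Rik and 4933405E24Rik have the same word once, on one or the other strand. 4933440M02Rik, at d16 the highest of the members that first reached 2 FPKM there, has TATAAA at 2 positions and ATTGTT once. 4933411K16Rik, the highest member in adult testis, has none of the 5 words in this stretch. The stretch shown for 4933434E20Rik, which was present from d12, has none either. It holds 33 CpG dinucleotides against 0 in the stretch of 4933406F09Rik and 1 to 3 in the other 4. The stretch before the first start site of 4933434E20Rik, not shown, holds AACAAT and 3 CpG dinucleotides, so the high count belongs to its second start site alone.

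The testis cell types of each library were read from 11 lists of marker genes. Summed levels of the 6 pachytene spermatocyte markers were 60.5 FPKM at d12 and 1016, 4394 and 5272 at d16, d24 and adult (FPKM counts fragments per kilobase of transcript, scaled for library size). Those of the 6 round spermatid markers were 3.48, 14.8, 468 and 1121 FPKM, and those of the 6 elongating spermatid markers 13.2, 4.45, 2363 and 26392 FPKM, each in that order of stages. Spermatogonial markers went from 292 FPKM at d12 to 60.1 in adult testis, Sertoli cell markers from 792 to 492, peritubular myoid markers from 207 to 65.6 and endothelial markers from 14.8 to 5.86. Most of the Sertoli cell sum was Clu, with 707 FPKM at d12 and 457 in adult testis, while Wt1 went from 40.3 to 12.7 and Rhox5 from 20.3 to 16.7. Early meiotic markers lay between 783 and 1416 FPKM, Leydig cell markers between 82.4 and 581, the 2 macrophage markers in the table between 3.98 and 7.32, and the 2 red blood cell markers between 58.6 and 260. The markers at 0 were 1 round spermatid marker at d12, 2 at d16 and the Sertoli cell marker Amh in adult testis. The part of these shifts in the time courses of single genes was not tested.

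Each gene was placed at the first stage at which it had at least 2 FPKM. Of the 110 genes, 18 (16.4%) had reached it at d12, 14 (12.7%) first did so at d16, 37 (33.6%) at d24 and 16 (14.5%) in the adult, and 25 (22.7%) did not at any stage. Over all 23983 genes the shares were 44.9% at d12, 3.55% at d16, 6.30% at d24, 1.98% in adult testis and 43.3% at no stage. The share of members was below that of all genes at d12 and at no stage, and above it at d16, d24 and in adult testis. Because members were named after clones from adult testis, this comparison is not independent of expression in the adult. The number of members with at least 2 FPKM was 18 at d12 and 30, 69 and 85 at d16, d24 and adult, while the share over all genes went from 44.9% to 49.7%. The median member lay at 0.0639 FPKM at d12 and 0.24, 3.85 and 7.63 at d16, d24 and adult.

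**Figure D1:**
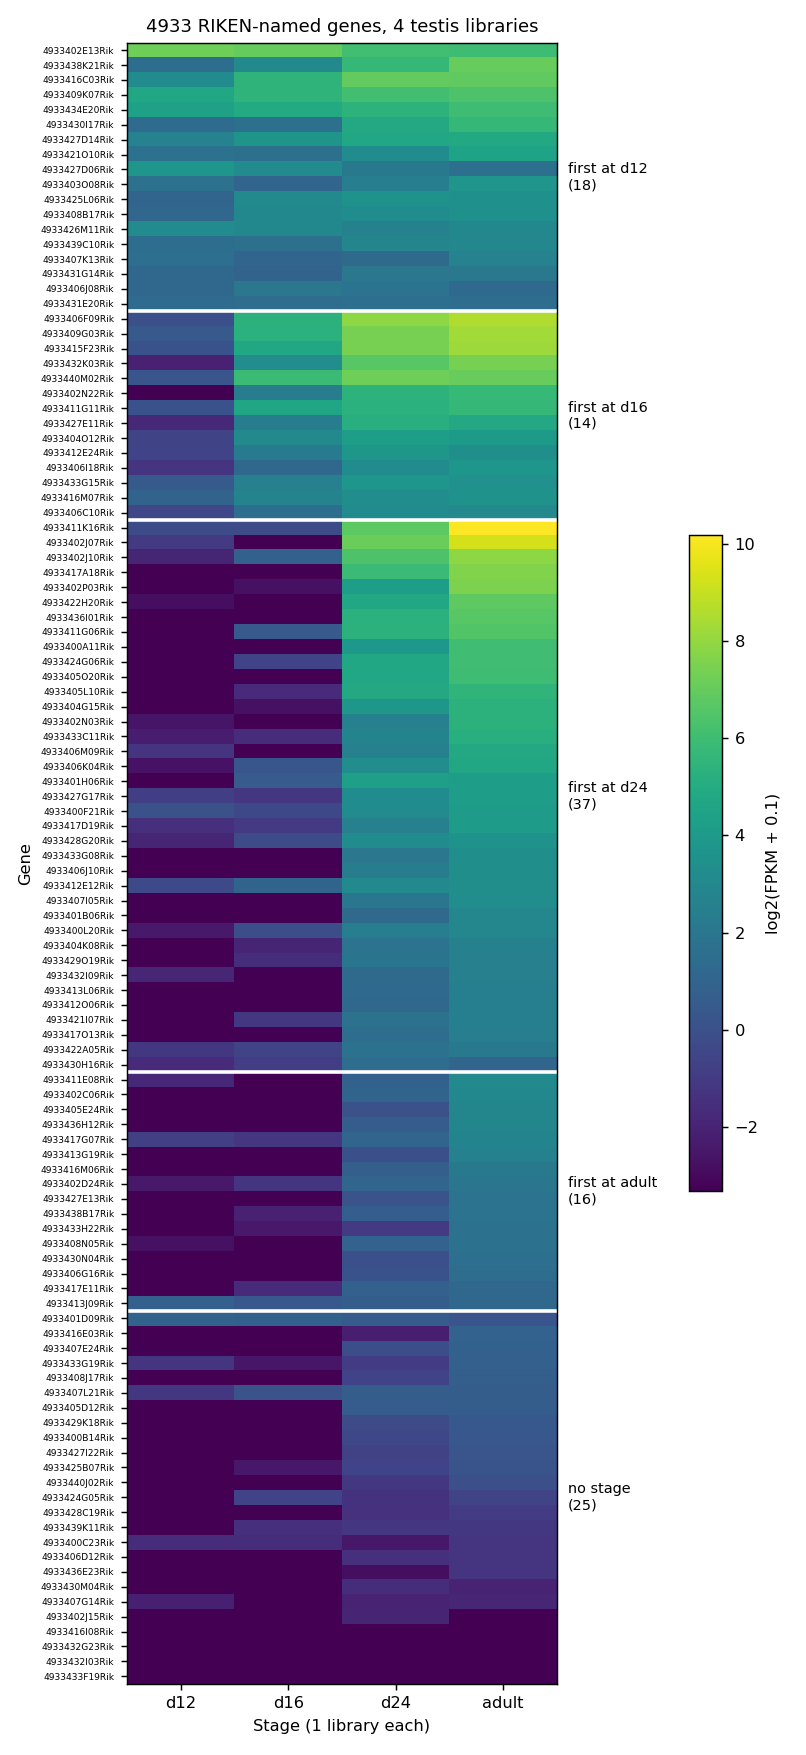
Heat map of log2(FPKM + 0.1) of the 110 members (rows, sorted within groups by their highest level at any stage) in the 4 testis libraries (columns, 1 library each), grouped by the stage of first reaching 2 FPKM. The group of 37 genes first reached at d24 is dark at d12 and d16, by the rule that formed it, and holds the brightest adult values.

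The values of members near 2 FPKM rest on few fragments. For a transcript of 1 kb, 2 FPKM stood for 25 fragments at d12 and d16, 43.9 at d24 and 17.8 in the adult. Just under the limit at their highest stage lay 4933401D09Rik with 1.87 FPKM at d12 (95% counting interval 1.27 to 2.65) and 4933416E03Rik with 1.79 in adult testis (1.06 to 2.83). Just over it lay 4933413J09Rik with 2.15 FPKM (1.66 to 2.74) and 4933417E11Rik with 2.26 (1.42 to 3.42), both in adult testis. All 4 are lncRNAs, and each interval holds 2 FPKM, so counting error alone can put them on either side. Counting intervals exist for 100 of the 110 members. In 70 of these 100 the group held when the interval of every stage up to the one reached had to lie clear of 2 FPKM, and the other 10 members could not be checked.

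Protein-coding and noncoding members were spread unequally over the groups. Of the 33 protein-coding members, 10 had reached 2 FPKM at d12, 5 first did so at d16, 15 at d24 and 2 in the adult, and 1 did not. As shares these were 30.3%, 15.2%, 45.5%, 6.06% and 3.03%, against 50.8%, 3.51%, 5.67%, 1.59% and 38.4% of all protein-coding genes. Of the 72 lncRNAs, the counts were 7, 9, 19, 13 and 24. Among all 1809 lncRNAs of the table, 12.4% had reached 2 FPKM at d12, against 9.72% of the member lncRNAs. First at d16 were 5.64% against 12.5%, at d24 15.8% against 26.4%, in adult testis 7.3% against 18.1%, and at no stage 58.8% against 33.3%. The median protein-coding member stood at 0.39 FPKM at d12 and 0.742, 25.9 and 46.1 at d16, d24 and adult, and the median member lncRNA at 0, 0.0862, 1.88 and 4.19 FPKM. Protein-coding members thus had the higher median level at every stage. All 5 transcribed pseudogenes had their highest value in adult testis, between 6.65 and 91.7 FPKM.

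Genes with names such as 1700029B22Rik (here set A) and 4930401C15Rik (set B) were named after clones of other testis libraries. Set A, all genes with the same first 4 digits as 1700029B22Rik, numbered 341, of which 15% had reached 2 FPKM at d12, 15% first did so at d16, 49.3% at d24 and 8.5% in the adult, and 12.3% at no stage. Of the 318 genes of set B, chosen likewise, the shares were 9.12%, 10.7%, 41.8%, 16.4% and 22%. The remaining 1079 RIKEN-named genes lay nearer to the whole table, with 28.6% at d12, 7.41% first at d24 and 57.9% at no stage. Like both of these sets, the members had their largest share first at d24, though a lower one than either. In adult testis the median member had 7.63 FPKM, against 26.6 for set A and 6.45 for set B. No test of these differences was made.

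**Figure D2:**
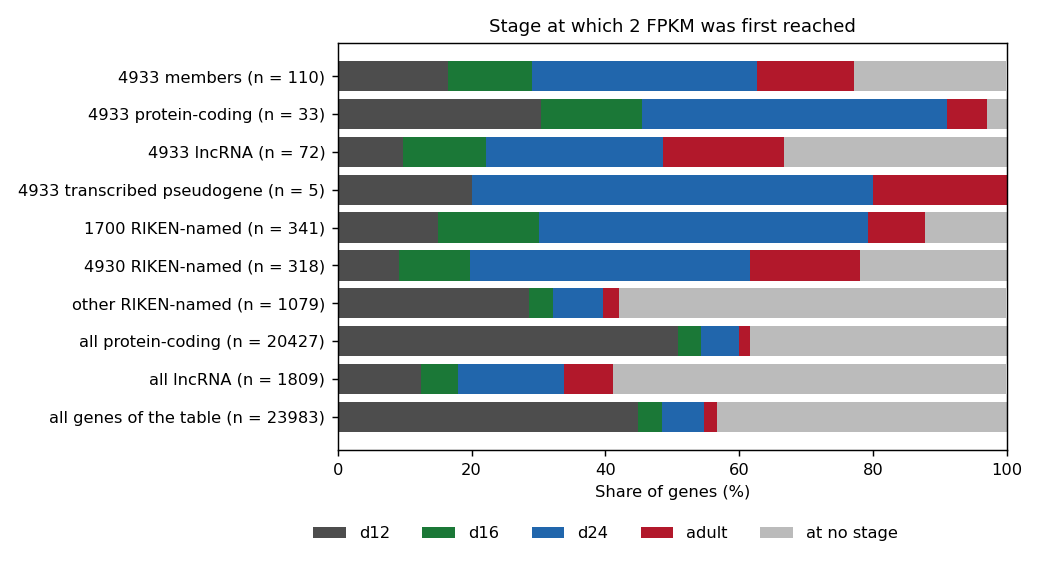
Share of genes (percent, horizontal axis) by the stage at which 2 FPKM was first reached, for the 110 members, for their protein-coding, lncRNA and pseudogene subsets, for other RIKEN-named genes (sets A and B, labelled by the first 4 digits of their names, and the remaining ones) and for all genes of the table. The share first reached at d24 was 33.6% of members against 6.30% of all genes.

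Changes between neighbouring stages were read as log2 ratios of FPKM + 0.1. A gene is said to have risen or fallen where the ratio was at least 2-fold and the higher stage had at least 2 FPKM. From d12 to d16, 18 members rose (16.4%, against 5.51% of all genes) and 0 fell (1.45%). From d16 to d24, 57 rose (51.8% against 14.9%) and 1 fell (4.25%). From d24 to adult testis, 39 rose (35.5% against 6.85%) and 0 fell (0.655%). The median log2 change of the 110 members was 0.00, 2.60 and 0.80 in these steps, and that of all genes was 0 in each. Many members had 0 fragments at one stage. With values under the limit of 3 fragments set to it, and genes at or under it at both stages left out, the medians were 1.00 (62 members), 2.54 (104 members) and 0.89 (105 members).

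The scaling between libraries bears on these counts, because the FPKM values of all genes summed to 283580 at d12 and 659202 in adult testis. With every library set to the same sum, log2 changes shift by -0.12, -0.62 and -0.48. Rises of members then numbered 20, 46 and 20 (over all genes 5.29%, 10.1% and 3.71%), and falls 0, 2 and 1 (2.94%, 16.6% and 3.77%). As a share of the table's summed FPKM, which needs no scaling between libraries, the 110 genes made up 0.0989% at d12 and 0.189%, 0.483% and 0.837% at d16, d24 and adult. Single genes carried much of this. 4933402E13Rik gave 51.6% of the members' sum at d12 and 22.1% at d16, 4933406F09Rik 10.2% at d24 and 4933411K16Rik 21% in adult testis.

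Of the 18 members present from d12, the 3 highest at d12 stayed over 20 FPKM at all stages. 4933402E13Rik, an X-linked gene of 4 exons, had 144.6 FPKM at d12 and 128.4, 68.8 and 62.4 at d16, d24 and adult, the highest value of any member at d12 and d16. It was lower at each later stage, and its d24 value was 0.535 times the d16 value (95% counting interval 0.509 to 0.563), short of a 2-fold fall. 4933409K07Rik, a transcribed pseudogene, had 26.5, 43.3, 67.3 and 83.2 FPKM at d12, d16, d24 and adult, and 4933434E20Rik, a protein-coding gene on chromosome 3, had 21, 30, 42.4 and 64. Both were higher at each later stage, by under 2-fold per step. 4933434E20Rik overlaps Ubap2l on the other strand, which had 54.7 to 76.9 FPKM. The strand setting of the FPKM step is not given in the sources used here.

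4933427D06Rik, an lncRNA on chromosome 6, had 13.7 FPKM at d12 and 8.97, 4.34 and 2.91 at d16, d24 and adult. It is the 1 member that fell in any step, from d16 to d24, by 1.03 on the log2 scale, and the counting interval of the ratio of 0.484 (0.408 to 0.575) holds a change of under 2-fold. With a pseudocount of 1 FPKM the change was -0.90 and no longer 2-fold. 4933426M11Rik (Susd6, named after its values were seen) had 9.1, 7.65, 6 and 7.64 FPKM, so 4933402E13Rik, 4933427D06Rik and 4933426M11Rik were the 3 members over 2 FPKM with their highest value at d12.

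The median of the d12 group was higher at each later stage. For the 18 genes it was 3.07 FPKM at d12 and 7.67, 9.22 and 11.8 at d16, d24 and adult, and 4 of the 18 rose from d12 to d16. Of these, 4933416C03Rik (Taf7l2, chosen after its values were seen), a gene of 1 exon, had 9.14 FPKM at d12 and 44.2, 123.2 and 116.3 at d16, d24 and adult. 4933427D14Rik, known in humans as KIAA0753, a gene of centriolar satellites and also chosen after its values were seen, had 6.23, 12.5, 27.4 and 28.9 FPKM in the same order, and was just short of 2-fold from d12 to d16 (log2 change 0.99). In both, d12 was the lowest of the 4 stages, and the adult to d24 ratios were 0.944 (0.9 to 0.991) and 1.06 (0.987 to 1.13). 4933406J08Rik (Terb2), chosen for its role in meiotic prophase, had 2.16 FPKM at d12 and 3.98, 3.39 and 2.39 at d16, d24 and adult. It was the 1 member over 2 FPKM with its highest value at d16.

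The 14 members first reaching 2 FPKM at d16 were, by that rule, under it at d12. Their median was 0.75 FPKM at d12 and 7.43, 37.5 and 39.6 at d16, d24 and adult. From d24 to adult testis 0 of the 14 rose, against 6.85% of all genes. 4933440M02Rik, an lncRNA on chromosome 7, had 1.1 FPKM at d12 (23 fragments), 58.3 at d16 (1246 fragments) and 145.5 and 132.3 at d24 and adult, a rise of 53.2-fold from d12 to d16 (36 to 85.9). 4933406F09Rik, the lncRNA with 2 CAGTTG words before its start site, had 0.865, 41.4, 232.9 and 383 FPKM, a rise of 47.9-fold from d12 to d16 (28.3 to 88). It has 2 near copies among annotated transcripts, meaning at least 95% identity over 80% or more of the transcript, so its fragments need not all belong to this locus.

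The 2 highest of the 5 protein-coding genes of this group were also present at d16 and higher at d24. 4933409G03Rik, a gene of 17 exons on chromosome 2, had 1.25 FPKM at d12 and 39.1, 171.9 and 313.2 at d16, d24 and adult. 4933415F23Rik (Ppp1r14bl), which has 1 exon, had 0.942, 25.8, 167.4 and 290.4 FPKM. From d16 to d24 they rose 4.4-fold (4.05 to 4.78) and 6.5-fold (5.97 to 7.09). Neither doubled from d24 to adult testis, where the ratios were 1.82 (1.75 to 1.9) and 1.74 (1.67 to 1.8). 4933402N22Rik had 0 fragments at d12 and 5.13, 42 and 51.9 FPKM at the later stages. Its d16 value was at least 23.7-fold over the limit of 3 fragments at d12, and its log2 change of 5.71 depends on the pseudocount, being 2.61 with 1 FPKM. 4933402N22Rik has 8 near copies, the most of any member, and its value at a single locus is uncertain.

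**Figure D3:**
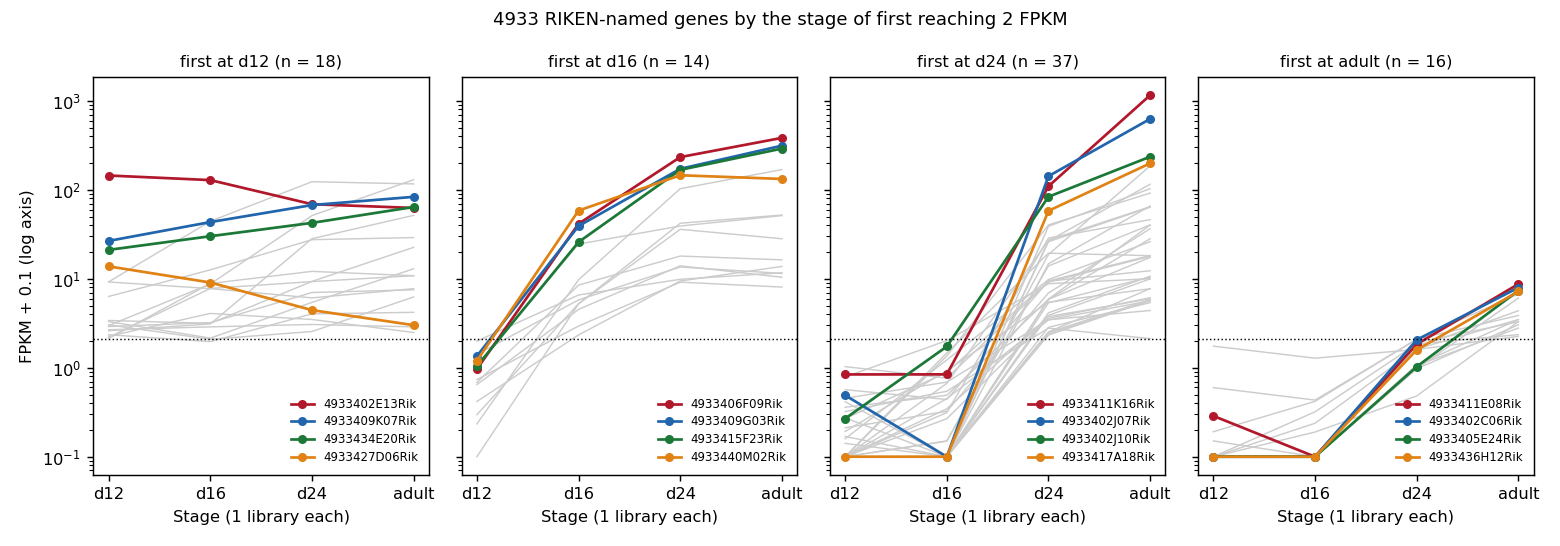
FPKM + 0.1 (log axis) by stage for the 85 members that reached 2 FPKM, in 4 panels by the stage of first reaching it, with 4 members coloured in each panel and the others in grey. The dotted line marks 2 FPKM. In the d16 panel 0 of the 14 courses double after d24, a step in which 6.85% of all genes rose. In the d24 panel 4933411K16Rik climbs from 0.742 FPKM at d16 to 1156 in adult testis.

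The 37 members first reaching 2 FPKM at d24 included the highest adult values. Their median was 0 FPKM at d12 and 0.167, 8.7 and 18.1 at d16, d24 and adult, where they made up 60% of the members' summed FPKM. 4933411K16Rik, a protein-coding gene of 1 exon on chromosome 19 (chr19:42052228-42053628, plus strand), had 0.741 FPKM at d12 (13 fragments), 0.742 at d16 (13 fragments) and 109.5 and 1156 at d24 and adult. It rose 147-fold from d16 to d24 (86.1 to 277) and a further 10.6-fold into the adult (10.2 to 11), the latter the largest ratio among the 85 members that reached 2 FPKM. It overlaps Hoga1 on the same strand, a mitochondrial enzyme gene that stayed between 0.206 and 0.835 FPKM.

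4933402J07Rik, a protein-coding gene of 6 exons on chromosome 8, was the next highest, with 0.39 FPKM at d12 (5 fragments), 0 at d16 and 142.1 and 625.9 at d24 and adult. Its d24 value was at least 606-fold over the limit of 3 fragments at d16. 4933402J10Rik, an lncRNA on chromosome 5, had 0.168, 1.63, 83.4 and 235.2 FPKM, and no fragments could be recovered for it because its transcripts differ in length. 4933417A18Rik, a protein-coding gene on chromosome 13, was listed at 0 at d12 and d16, and reached 57.9 FPKM at d24 and 198.2 in the adult, at least 252-fold over the limit at d16. By the rule of the group the 4 genes were under 2 FPKM before d24. Each was higher in adult testis than at d24, by 2.82-fold to 10.6-fold.

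4933402P03Rik (Spem2, a relative of the spermatid maturation gene Spem1) had 0 fragments at d12, 1 at d16 (0.0495 FPKM), 670 at d24 (18.6 FPKM) and 2713 in the adult (185.8 FPKM), a rise of 9.97-fold from d24 to adult testis (9.17 to 10.9). Only 4933411K16Rik had a larger ratio in that step among the members over 2 FPKM at d24. Over the same step the sum of the elongating spermatid markers went from 2363 to 26392 FPKM, and a part of these cells in the rises of 4933402J07Rik, 4933411K16Rik and 4933402P03Rik was not tested. At d12, when that sum was 13.2 FPKM against 4.45 at d16, 4933402J07Rik had 5 fragments against 0 at d16. By contrast, 4933411K16Rik had 13 fragments at both stages and 4933402P03Rik had 0 at d12 and 1 at d16. Of the 110 members, 36 had 0 FPKM at both d12 and d16 (32.7%, against 22.4% of all genes).

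The 16 members first reaching 2 FPKM in adult testis stayed low. They ranged from 2.15 to 8.62 FPKM there, with a median of 3.57, and 13 of the 16 are lncRNAs. The 4 highest were 4933411E08Rik with 0.187, 0, 1.74 and 8.62 FPKM at d12, d16, d24 and adult, 4933402C06Rik with 0, 0, 1.96 and 7.85, 4933405E24Rik with 0, 0, 0.926 and 7.26, and 4933436H12Rik with 0, 0, 1.49 and 7.1. All 4 were already detected at d24, on 22 to 65 fragments. The d24 counting intervals of 4933411E08Rik (1.34 to 2.21) and 4933402C06Rik (1.42 to 2.64) hold 2 FPKM. Of the 16 members, 5 kept this group when the intervals had to lie clear of 2 FPKM. 4933405E24Rik, with the word CAACTG before its start site, was 7.84-fold higher in the adult than at d24 (4.8 to 13.3). 4933413G19Rik (Tex52, chosen after its values were seen), one of the 2 protein-coding genes of this group, had 0 FPKM at d12 and d16, 0.875 at d24 and 5.96 in the adult.

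Of the 25 members that stayed under 2 FPKM, 24 are lncRNAs. Their highest values lay between 0 and 1.87 FPKM, and 3 were at 0 in all libraries (4933432G23Rik, 4933432I03Rik and 4933433F19Rik, named for that reason). 4933401D09Rik was the highest at d12, with 1.87 FPKM there and 1.75, 1.41 and 1.1 at d16, d24 and adult. 4933416E03Rik had 0 FPKM at d12 and d16 and 1.79 in the adult (18 fragments), with 0.121 (3 fragments) in between at d24.

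The 39 rises from d24 to adult testis came from 3 of the groups. They were 4 of the 18 genes of the d12 group, 0 of 14 of the d16 group, 23 of 37 of the d24 group and 12 of 16 of the adult group. Over all genes 6.85% rose in this step, and 0 of 14 lies near that share. The ratio of adult to d24 FPKM over the 85 members that reached 2 FPKM ran from 0.67 (4933427D06Rik) to 10.6 (4933411K16Rik), with a median of 1.93, and 14 lay below 1. The median ratio was 1.12 in the d12 group, 1.21 in the d16 group, 2.45 in the d24 group and 3.35 in the adult group. The d24 value is part of both the ratio and the rule for the last 2 groups, while the d12 and d16 groups were set without it. The median ratio was nearly the same for protein-coding members (1.83, 32 genes) and lncRNAs (1.94, 48 genes).

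**Figure D4:**
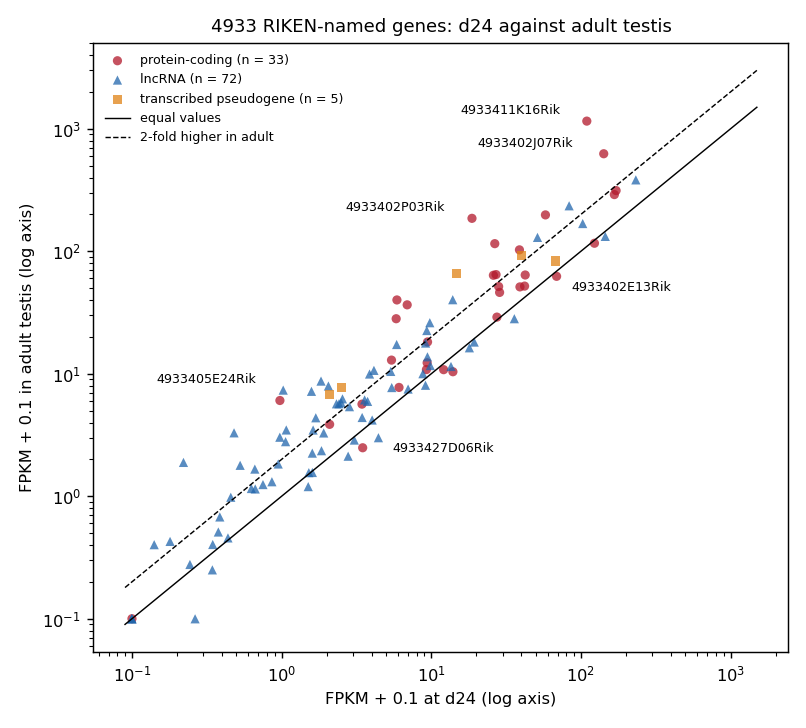
FPKM + 0.1 in adult testis against FPKM + 0.1 at d24 (both log axes) for the 110 members, with circles for protein-coding genes, triangles for lncRNAs and squares for transcribed pseudogenes. The solid line marks equal values and the dashed line a 2-fold higher adult value. 4933411K16Rik, 4933402J07Rik and 4933402P03Rik lie above the dashed line, and 4933402E13Rik lies just under the line of equal values.

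Counting error was set against each called rise. Of the 18 rises from d12 to d16, 15 have an interval of the ratio, and all 15 intervals lie above 2-fold. 4933402N22Rik started from 0 fragments and lay more than 2 times over its limit, and 2 have no fragments. Of the 57 rises from d16 to d24, 35 have an interval, of which 32 lie above 2-fold and all 35 above 1. A further 15 started from 0 fragments and rose at least 8.91-fold to 606-fold over the limit, and 7 have no recovered fragments. Of the 39 rises from d24 to adult testis, 37 have an interval, all above 1 and 29 above 2-fold. These intervals do not cover the spread between animals.

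The 7 X-linked members are of interest because the X chromosome is silenced in pachytene spermatocytes and active again, in part, in round spermatids. 3 of the 7 had reached 2 FPKM at d12 (42.9%, against 44.9% of all genes). A further 3 first did so at d24 (42.9% against 6.30%) and 1 at no stage (14.3% against 43.3%). 4933436I01Rik, a protein-coding gene at chrX:67919864-67921450 (minus strand), had 0 FPKM at d12 and d16, 38.8 at d24 and 102.7 in the adult, at least 230-fold over the limit at d16. 4933400A11Rik, a transcribed pseudogene, had 0, 0, 14.7 and 65.6 FPKM, and 4933401B06Rik, another, had 0, 0, 2.43 and 7.64. All 3 lacked fragments at d12 and d16 and were higher in adult testis than at d24. 4933400A11Rik overlaps Mid1 on the other strand, which had 1.31 FPKM at d12 and 0.32 in adult testis.

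The 3 X-linked members present at d12 were lower at d16, each by more than counting error and by less than 2-fold. 4933402E13Rik had 0.888 times its d12 value at d16 (0.846 to 0.932), 4933403O08Rik, a protein-coding gene, had 3.21 FPKM at d12 and 2.05, 5.33 and 12.8 at d16, d24 and adult, and 4933407K13Rik had 2.93, 1.99, 2.45 and 6.15. The d16 to d12 ratios of the latter were 0.641 (0.417 to 0.973) and 0.679 (0.508 to 0.902), none of them a 2-fold fall. 4933407K13Rik is the lncRNA of Dxz4, a macrosatellite known for its part in the folding of the inactive X chromosome. 4933403O08Rik and 4933407K13Rik had their highest value in adult testis and rose from d24 by 2.41-fold (1.94 to 2.99) and 2.5-fold (2.03 to 3.09). 4933416I08Rik, a protein-coding gene with 1 near copy, was at 0 at d12 and d16 and under 0.001 FPKM at d24 and in adult testis, which is less than 1 fragment.

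Many members lie close to another gene. A neighbour that starts within 1000 bp on the other strand and is read away from the member, a head-to-head pair, was found for 20 of the 109 members with a position on the assembly (18.3%, against 11.2% of all genes). Of protein-coding members, 9 of 33 had one (27.3% against 11.6% of all protein-coding genes), and of member lncRNAs 11 of 72 (15.3% against 14% of all lncRNAs). An annotated gene on the other strand overlapped 49 members (45% against 33.8%), among them 39 of the 72 lncRNAs (54.2% against 50.1% of all lncRNAs). For overlapping genes, reads of both strands could have been counted together, since the strand setting of the FPKM step is not given in the sources used here.

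In 15 of the 20 head-to-head pairs the neighbour is also in the table. The neighbour had at least 2 FPKM at d12 in 11 of the 15 pairs and the member in 4, against 44.9% of all genes. From d16 to d24 the member rose in 11 pairs, the neighbour in 5, and both in 5. In that step 51.8% of all 110 members and 14.9% of all genes rose. The median log2 change in that step was 2.01 for the members and 0.78 for their neighbours.

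3 pairs, chosen after their values were seen, serve as examples and do not stand for the 15. 4933417A18Rik and Fam217a start 47 bp apart, and Fam217a had 0.433, 0.635, 36.6 and 97.6 FPKM at d12, d16, d24 and adult beside 0, 0, 57.9 and 198.2 for 4933417A18Rik. 4933402N03Rik and the lncRNA 1700029B22Rik start 156 bp apart and had 5.8 and 4.57 FPKM at d24 and 40 and 74.5 in adult testis, both under 0.1 FPKM before. In these pairs both genes came up at d24. In the third pair both genes were over 2 FPKM at every stage. 4933430I17Rik, 290 bp from Pole3, which encodes a subunit of DNA polymerase epsilon, had 2.51 FPKM at d12 and 3.01, 28.1 and 51.5 at d16, d24 and adult, while Pole3 had 103.8, 193, 301.3 and 402.7.

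Other pairs, also chosen after their values were seen, differed in level or direction. 4933411G11Rik (Spdye4b), 242 bp from Rbak, had 0.962, 24.4, 39.1 and 51.1 FPKM in order of stage, while Rbak, a zinc finger gene, went from 4.55 and 5.28 to 2.99 and 2.72. 4933427D14Rik, 72 bp from Txndc17, rose from d16 to d24 while Txndc17 went from 7.41 to 4.94 FPKM, short of a 2-fold fall. 4933405L10Rik and Enkd1, 68 bp apart, both rose from d16 to d24, from 0.214 to 28.6 FPKM and from 11.1 to 38. No neighbour of the 15 pairs fell from d16 to d24, a step in which 4.25% of all genes fell.

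**Figure D5:**
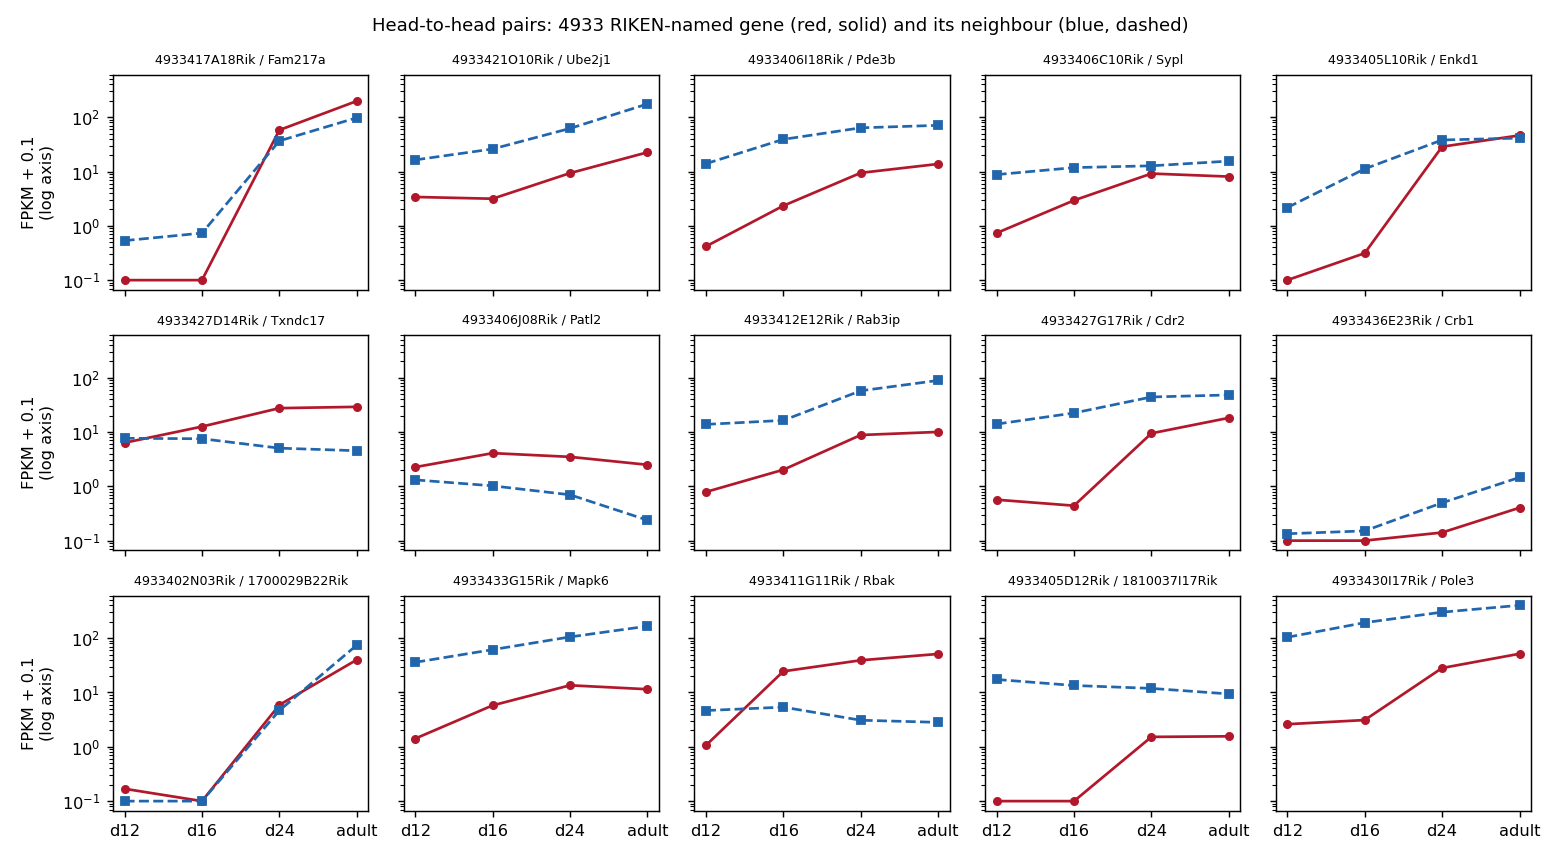
FPKM + 0.1 (log axes) by stage for the 15 head-to-head pairs with both genes in the table, 1 panel a pair, the member as solid red circles and its neighbour as dashed blue squares, 1 library per stage. In 11 of the 15 panels the neighbour has at least 2 FPKM at d12, and in 4 the member does, against 44.9% of all genes.

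Start sites with a RefSeq promoter sequence were at hand for 87 of the 110 members (94 start sites), and each window held the 250 bases before and the 50 after the start. CAACTG or its complement was found in 29.8% of the member windows, against 13.7% of all 32851 windows of the same length. GTTGCC was found in 18.1% against 12.5%, AACAAT in 12.8% against 10.7%, TATAAA in 11.7% against 13.6% and TGACGTCA in 1.06% against 1.79%. CAACTG was thus the word whose share differed most. It was found in 35.5% of the lncRNA and 18.8% of the protein-coding windows, and by stage group in 30% at d12, 27.3% at d16, 32.3% at d24, 27.3% in adult testis and 28.6% at no stage of the windows. Among all genes of the table it was found in 17.6% of the windows of those first reaching 2 FPKM at d24 and in 10.4% of those present from d12.

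Base composition differed more between the stage groups of the members. The observed over expected frequency of CpG, which is high in CpG islands, had a median of 0.223 in member windows against 0.384 in all windows, and 19.1% of member windows against 35.8% of all were at 0.6 or above. This share was 40% for members present from d12 (20 windows of 15 genes), 27.3% for those first at d16 and 16.1% at d24. In adult testis it was 0% of 11 windows, and at no stage 9.52%. Over the table it was 72.1% for genes present from d12 and 26% for genes first at d24. By gene type it was 31.2% of the 32 protein-coding and 12.9% of the 62 lncRNA windows of members. The stage groups also differ in gene type, and the parts of stage and type in this share were not told apart. A word match is a description of letters and not a site of binding, and no test of these shares was made.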

How the data were processed

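The 4 RNA-seq samples of mouse testis (d12, d16, d24, adult), 1 for each stage, were assigned from the labels, and the H3K27Ac samples are not analysed here. The table deposited by the authors holds 23983 genes in FPKM. Bowtie 1.1.2 within TopHat2 2.1.0 had placed each read pair once on GRCm38/mm10, and FPKM came from Cuffdiff (Cufflinks 2.2.1), correcting for multi-reads and bias but not for effective length. Reads of near-identical copies can therefore move between loci. The scaling between libraries inside Cuffdiff is not given in the sources used here.

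The limit of 2 FPKM follows the methods of the study. Log2 changes use a pseudocount of 0.1 FPKM. No test was made, because no stage has replicates. Fragments were recovered for 100 of the 110 members from the value of 1 fragment in each library (0.0799, 0.08, 0.0455 and 0.112 FPKM per kb of transcript at d12, d16, d24 and adult), which gave whole numbers, within 0.05, for 91.3% to 92.2% of values up to 20 fragments. Implied fragments on genes were 9324287, 9918059, 24978594 and 12733609. Intervals are exact 95% Poisson intervals, or Clopper-Pearson intervals for ratios. They and the limit of 3 fragments (0.24, 0.24, 0.137 and 0.337 FPKM for a transcript of 1 kb) cover counting error only. Positions, gene types and promoter sequences came from RefSeq for GRCm38.p6, and near copies from blastn 2.17.0 (e-value up to 1e-10). Numpy 2.4.6, scipy 1.17.1 and pandas 2.3.3 under Python 3.11.15 were used, and the scripts were tested on simulated data.

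Members named are the 6 highest in adult testis, the 4 highest at d12, the 4 highest at the defining stage of the d16, d24 and adult groups, the 3 largest called rises and falls per step, all on X or Y, and the 2 on each side of 2 FPKM, 28 in all. Others are said to be chosen after their values were seen. The members, marker lists, words and rules were chosen with earlier results of these data known. Alternatives were thresholds of 1 and 5 FPKM, a 4-fold limit, a pseudocount of 1 FPKM, no minimum level, both rescalings (same sum, same upper quartile) and counting intervals.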

Additional observations from a re-analysis of the deposited data

How the results depend on the processing

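For 18 results 71 alternatives were computed, of which 22 moved the result and 49 did not. Counts and shares were held to 1.5 times, and medians to the 95% order-statistic interval of the median over the 110 members, which is 0.00 to 0.59 from d12 to d16, 2.12 to 3.18 from d16 to d24 and 0.61 to 1.095 from d24 to adult testis. The first of these is wide, and the d12 to d16 median went from 0.00 to 0.55 over the members with a mean of at least 1 FPKM without leaving it. No paired analysis was possible because each stage has 1 library and no test was made, and no replicate could be left out. A lower or higher limit keeps more or fewer genes by its construction, and the cause of the other moves was not tested. With a threshold of 1 FPKM, 14 members stayed below it at every stage. With 5 FPKM, 7 members were placed at d12 and 40 at no stage. With counting intervals clear of 2 FPKM, a setting chosen after seeing the data, 11 members were placed at d12, 5 in adult testis and 15 at no stage. Of the 18 members of the d12 group 4 have no intervals and so dropped out, and 11 of the 14 with intervals held. All 16 of the adult group and 24 of the 25 at no stage have intervals.

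Without a minimum of 2 FPKM, 36 members rose and 6 fell from d12 to d16, 87 rose from d16 to d24, and 1 fell from d24 to adult testis. With a 4-fold limit, 0 fell from d16 to d24 and 13 rose from d24 to adult testis. With a pseudocount of 1 FPKM, 0 fell from d16 to d24, the median log2 changes were 1.31 from d16 to d24 and 0.59 from d24 to adult testis, and the change of 4933427D06Rik from d16 to d24 was -0.90. Shares over all genes are not given for a changed minimum, fold limit or pseudocount. Counts under those settings cannot be set against the shares given earlier. With all libraries at one FPKM sum, 2 fell from d16 to d24 and 1 from d24 to adult testis, 20 rose from d24 to adult testis, and the medians were 2.06 and 0.37. With the same upper quartile, 2 fell from d16 to d24 (9.02% of all genes did) and the median from d24 to adult testis was 0.58. For the named changes, 19 of their alternatives kept direction and call, and 4933427D06Rik with a pseudocount of 1 FPKM was the exception. Counting error covers 2 FPKM for members close to it, and members at 0 are unresolved below 0.137 to 0.337 FPKM for a transcript of 1 kb.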
